A study of Homo sapiens with 12 samples.

Results

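The replication-dependent histone genes encode the core histones H2A, H2B, H3 and H4, of which the nucleosome is built, and the linker histones H1, which bind the DNA between nucleosomes. They were taken as every row of the count table whose symbol belongs to the H1-1 to H1-6, H2AC, H2BC, H3C or H4C series, without pseudogenes. This gave 66 of 44659 genes, namely 6 of H1, 16 of H2A, 17 of H2B, 13 of H3 and 14 of H4. RNA-seq had been performed on A375 cells, an established human melanoma cell line with mutated BRAF, in 2 experiments with 3 libraries per group. In the first, cells were cultured for 24 h with MAPK inhibitors (MAPKi, 500 nM vemurafenib against BRAF and 500 nM cobimetinib against MEK) or with the solvent DMSO. In the second, cells were kept for 24 h in medium without glutamine (Gln-depleted) or in medium with 2 mM glutamine (CTRL), the concentration used for routine culture of this line. The extraction protocol in the labels names cytoplasmic fractions, whereas their molecule field and the methods of the study name total RNA, so which fraction was sequenced is unclear. The comparisons ask which mRNAs respond to MAPKi and to the lack of an amino acid.

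Replication-dependent histone genes are transcribed mainly in S phase, when new DNA has to be packed into nucleosomes. Their mRNAs are the known exception among animal mRNAs in carrying no poly(A) tail. They end instead in a conserved stem-loop, which is bound by the stem-loop binding protein SLBP and cleaved by a complex around the U7 snRNP, and they are degraded rapidly when DNA synthesis stops. Libraries were prepared by depletion of ribosomal RNA, a method that does not select for poly(A) tails.

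All values are normalized counts of reads unless stated, that is, counts scaled to the mean effective library size of the experiment. Between 31056296 and 40071368 reads were counted per library. Of 8 melanoma markers, SOX10 had at least 10043 reads in every library, while MLANA (2 to 203 reads) and TYR (11 to 146) were low in some libraries. With MAPKi 5 of the 8 were upregulated, among them DCT (log2 fold change 5.28) and PMEL (2.91), and S100B was downregulated (-2.13). Of 9 markers of other cell types, only VWF (85 to 319 reads) exceeded 17 reads in any library. VWF had 299 ± 18.2 normalized counts (SD, n = 3) with MAPKi and 164 ± 11.9 with DMSO. The reads on RN7SK, a small nuclear RNA, made up 3.95% to 4.40% of each MAPKi library and 1.93% to 2.15% of each DMSO library, against 1.99% to 3.79% of each Gln-depleted and 1.55% to 2.25% of each CTRL library. The part of these markers and of RN7SK in the results was not tested. The labels do not state that the 3 libraries of a group came from separate cultures, so that p-values measure the spread between these libraries. Replicates differed by more than counting error, with a chi-square per degree of freedom of 3.52 to 15.7 between libraries of the first experiment and 41.1 to 228 between those of the second. The libraries of the second experiment belong to 2 experimental batches by their labels, with replicate 1 of both groups in the first and replicates 2 and 3 in the second.

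According to the annotation (GENCODE 44, GRCh38), 55 genes lie at 6p22 on chromosome 6 between positions 25723397 and 27893891, and 11 lie at 1q21 on chromosome 1 between 149782689 and 149887965. An intron is annotated in at least 1 transcript of 13 genes, and the other 53 have a single exon. The genes of a class encode identical or similar proteins. Of the 14 H4 genes, 13 encode an identical protein of 103 amino acids, and the 13 H3 genes encode only 2 proteins of 136 amino acids. The H2A genes encode 10 proteins, the H2B genes 13, and the 6 H1 genes 6 different proteins of 207 to 226 amino acids.

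The stem-loop is the feature by which these mRNAs are known. A perfectly paired stem of 6 bases with a loop of 4 bases, written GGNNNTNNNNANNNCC, was searched on the coding strand within 150 bases after the stop codon. It was found in 64 of the 66 genes (97.0%), all but H2AC11 and H2AC15, and in 23 of 19858 other protein-coding genes (0.116%). Among these 23 were the histone genes H2AX, H2AC25, H2BC26, H3-4, H3-7 and H4C16. Such a match describes the letters of the genome, in which T stands for U of the mRNA. An example is given per class, with the stem-loop in capitals, for the gene with the most reads in each class and for H4C9 and H3C6, which are described later. Coordinates refer to GRCh38, and sequences run 5′ to 3′ along the gene.
H1-2, chr6:26055739-26055764, minus strand: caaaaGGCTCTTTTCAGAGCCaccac
H2AC20, chr1:149887386-149887411, plus strand: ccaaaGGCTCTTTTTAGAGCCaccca
H2BC18, chr1:149811880-149811905, minus strand: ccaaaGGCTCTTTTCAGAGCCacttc
H3C2, chr6:26031592-26031617, minus strand: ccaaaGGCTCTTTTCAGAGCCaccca
H4C3, chr6:26104312-26104337, plus strand: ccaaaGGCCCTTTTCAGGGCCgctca
H4C9, chr6:27139649-27139674, plus strand: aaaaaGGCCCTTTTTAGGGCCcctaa
H3C6, chr6:26225591-26225616, plus strand: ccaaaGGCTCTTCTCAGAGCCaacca
The commonest form, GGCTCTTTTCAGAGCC, was present in 38 genes. The stem began with GGCCCT in all 14 H4 genes and with GGCTCT in all 50 genes of the other classes that had a match, so the stem sets H4 apart from the other classes. The loop TCTC was found in H3C6, with the GGCTCT stem, and in H4C13, with the GGCCCT stem. The forms in H2AC20 and H2BC10 were likewise each present in a single gene.

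Promoters, taken from RefSeq (GRCh38.p14) as 250 bases before to 50 bases after the start of transcription, were available for 60 of the 66 genes. The window listed for H3C4 is that of H2AC7 and was counted for H2AC7 alone. Motifs were searched on both strands. Windows of neighbouring genes on opposite strands can overlap, as those of H2AC11 and H2BC11 do, so that 1 site may count for 2 genes. The windows of H4C14 and H4C15 hold the same sequence. The promoters counted are therefore not all separate. CCAAT was present in 85.0% of these promoters, against 35.7% of 27305 promoters of all genes, TATAAA in 68.3% against 12%, the octamer ATTTGCAT in 41.7% against 1.80%, and TTTCGCGC, a motif of E2F factors, in 12 of the 60 against 0.546%. The classes differed in these letters. CCAAT was found in every promoter of the H1, H2A, H2B and H3 genes with a sequence (6, 15, 17 and 10) but in 3 of 12 H4 promoters, and the octamer in 14 of 17 H2B and 11 of 15 H2A promoters, and in 0 of 6 H1, 10 H3 and 12 H4 promoters. The promoters of 3 genes are given because they hold different motifs, which are in capitals and may overlap. In the data described next these genes fell by different amounts. Their log2 fold changes, in the order given, were -1.96, -2.31 and -2.86 with MAPKi and -0.56, -0.61 and -1.68 with Gln depletion. Any part of the motifs in these values was not tested.
H2BC12, chr6:27146809-27147108, minus strand: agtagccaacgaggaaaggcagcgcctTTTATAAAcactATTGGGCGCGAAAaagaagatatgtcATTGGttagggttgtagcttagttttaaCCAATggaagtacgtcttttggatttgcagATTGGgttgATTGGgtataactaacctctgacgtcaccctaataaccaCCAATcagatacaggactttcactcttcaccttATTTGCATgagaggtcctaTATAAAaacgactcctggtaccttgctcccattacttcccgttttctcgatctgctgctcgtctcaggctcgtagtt
H3C2, chr6:26032050-26032349, minus strand: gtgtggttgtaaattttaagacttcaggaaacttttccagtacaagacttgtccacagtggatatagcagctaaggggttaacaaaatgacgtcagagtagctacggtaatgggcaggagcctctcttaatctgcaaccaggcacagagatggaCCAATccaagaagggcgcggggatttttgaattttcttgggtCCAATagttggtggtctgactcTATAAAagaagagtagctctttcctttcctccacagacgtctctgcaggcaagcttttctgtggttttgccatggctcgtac
H4C9, chr6:27139032-27139331, plus strand: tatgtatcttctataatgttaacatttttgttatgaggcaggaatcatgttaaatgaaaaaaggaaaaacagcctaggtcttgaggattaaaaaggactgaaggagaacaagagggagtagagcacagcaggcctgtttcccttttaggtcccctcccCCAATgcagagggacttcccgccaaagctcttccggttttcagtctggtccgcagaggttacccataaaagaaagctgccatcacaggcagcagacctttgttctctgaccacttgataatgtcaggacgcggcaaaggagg
The H2BC12 promoter holds all 4 motifs, that of H3C2 holds CCAAT and TATAAA, and that of H4C9 holds CCAAT. The promoter of H4C6 also holds CCAAT alone of the 4, and this gene had log2 fold changes of -2.31 with MAPKi and -0.28 with Gln depletion.

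In control cells, the histone genes were expressed at high levels with the exception of a few. In DMSO libraries, 1.02% ± 0.0343 (SD, n = 3) of all counted reads fell on the 66 genes, and in CTRL libraries 0.864% ± 0.0897 (SD, n = 3). Per length of exons, H1-2 had the highest level with DMSO, at 1021 ± 65.1 RPKM (reads per kilobase of exon, scaled to the counted reads of the library, SD, n = 3). It was followed by H3C2 at 886 ± 26.7, H4C3 at 729.7 ± 35.5, H3C3 at 711 ± 30.4 and H4C4 at 694 ± 39.1, of which H4C3, H3C3 and H4C4 did not differ beyond their spread. H2AC11 at 538 ± 3.37 and H2BC12 at 575 ± 30.9 were the highest of H2A and H2B by this measure. It divides by the joined length of all annotated exons, which was 1798 bases for H2BC18 and 495 for H2BC12. H2BC18, with more reads than H2BC12, therefore had only 208 ± 9.22 RPKM, and the ranks depend on the annotation. In all, 10 genes did not reach the mean normalized count of 10 needed for a test in either experiment, with at most 14 reads in any library. These were H1-1, the testis gene H1-6, H2AC1, H2AC7, H2AC16, H2BC1, H2BC6, H3C11, H4C7 and H4C13, the last of which had 0 reads in all 12 libraries. H1-6 had 0 to 1 reads per library with MAPKi, 1 to 7 with DMSO, 8 to 14 in Gln-depleted and 0 to 7 in CTRL libraries. H2BC26 and H4C16 carry older symbols in the table, and H2AC25 has no row of that symbol, so that these genes are not among the 66.

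**Figure D1:**
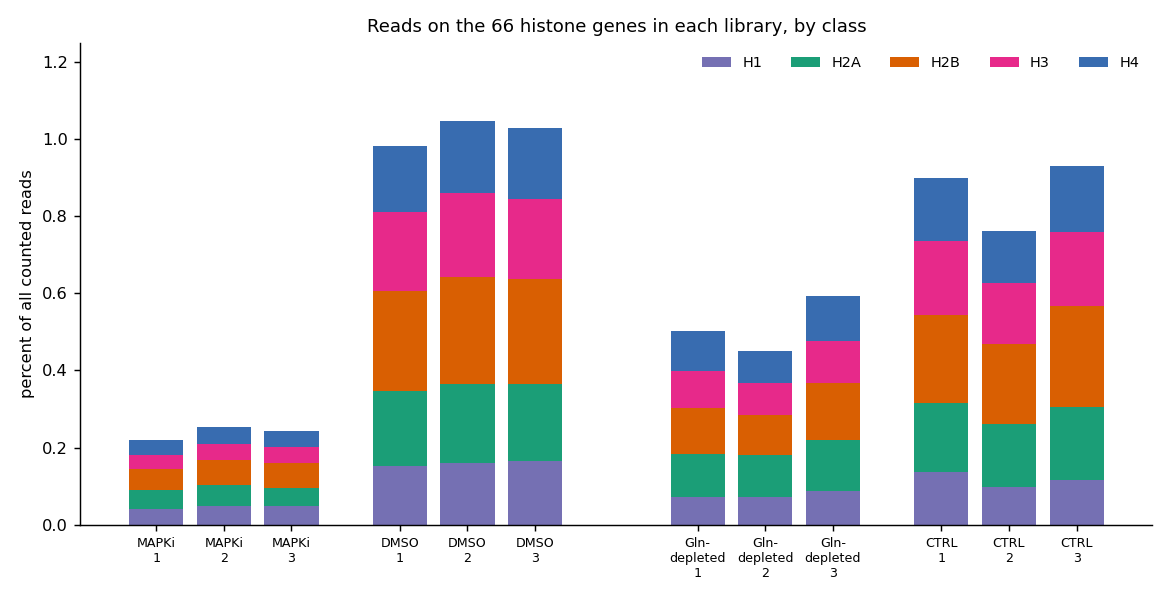
Percent of all counted reads that fell on the 66 histone genes in each of the 12 libraries, stacked by histone class (colours). With MAPKi the total was between 0.218% and 0.253%, against 0.981% to 1.05% with DMSO, and in Gln-depleted libraries it was between 0.450% and 0.593%, against 0.762% to 0.930% in CTRL libraries.

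With MAPKi, the reads on the histone genes fell more than 4-fold. They made up 0.218%, 0.253% and 0.242% of the reads in MAPKi libraries and 0.981%, 1.05% and 1.03% in DMSO libraries, so that the means differed 4.28-fold. Of the 56 genes tested, 53 were downregulated by more than 1.5-fold at an adjusted p (Benjamini-Hochberg) of no more than 0.05 (edgeR's quasi-likelihood test), against 18.6% of all 12600 genes tested. No histone gene was upregulated, whereas 17.0% of all genes were, and 0 were higher at an unadjusted p of at most 0.05 or with DESeq2. The number was also 53 without the fold threshold, where 39.2% of all genes were lower and 38.9% higher. In these 53 genes every MAPKi library was below every DMSO library, as it was in 40.6% of all genes. The median log2 fold change was -2.23 (4.68-fold lower), and that of all genes was 0.00. In bulk RNA, fewer cells in S phase and less histone mRNA per cell cannot be told apart.

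**Figure D2:**
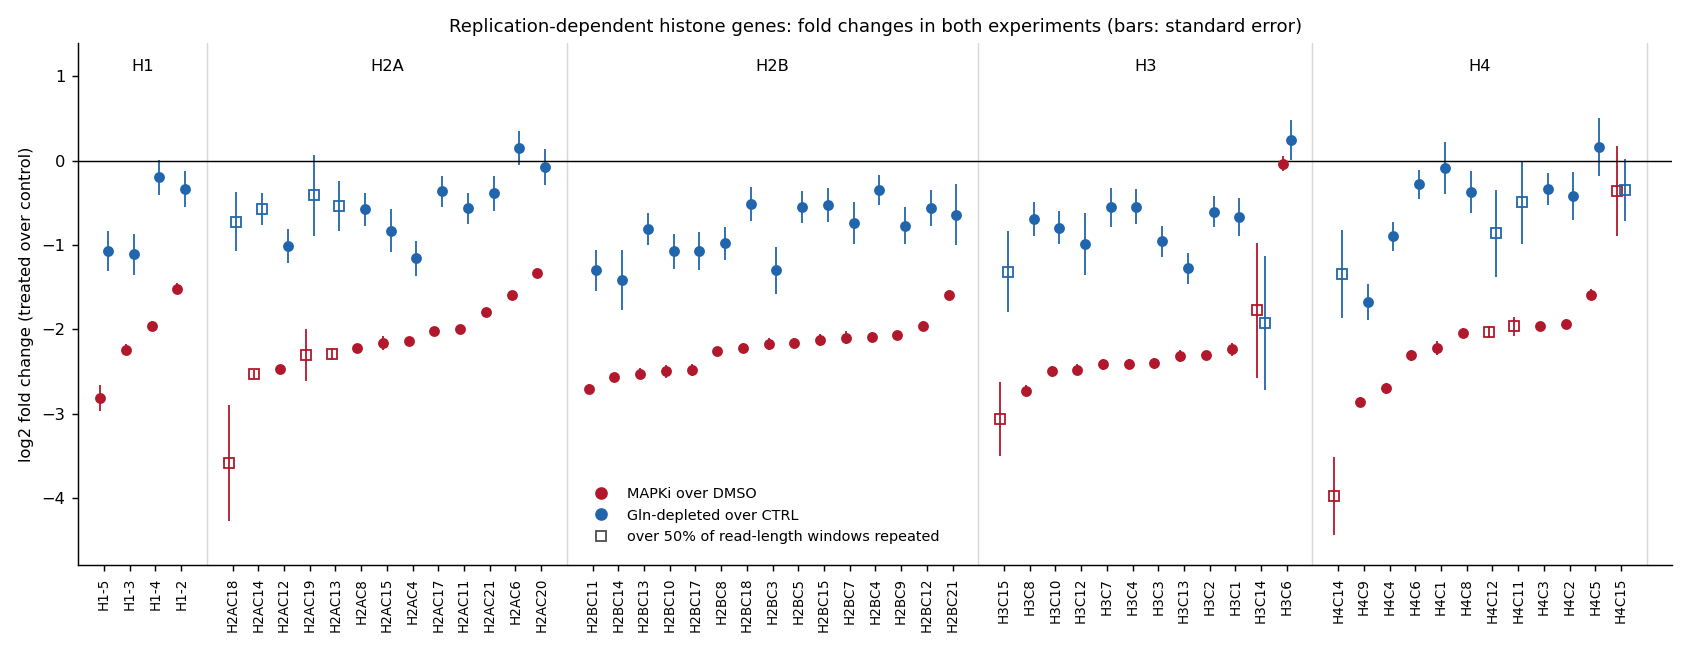
Log2 fold change of each of the 56 tested histone genes (horizontal axis, grouped by class) with MAPKi over DMSO (red) and in Gln-depleted over CTRL libraries (blue), with bars of 1 standard error. Open squares mark genes with more than 50% of their read-length windows repeated elsewhere. With MAPKi the values ran from -3.98 (H4C14) to -0.03 (H3C6), and in the Gln depletion experiment from -1.93 (H3C14) to 0.25 (H3C6).

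All classes took part in this fall. The median log2 fold change was -2.10 for H1 (4 of 4 genes tested downregulated), -2.16 for H2A (13 of 13), -2.18 for H2B (15 of 15), -2.41 for H3 (10 of 12) and -2.04 for H4 (11 of 12). It was -2.23 for the 45 genes tested at 6p22 and -2.23 for the 11 at 1q21, of which 44 and 9 were downregulated. Read by their share of all counted reads, the H1 genes differed least (3.46-fold) and the H3 genes most (5.27-fold). Thus among the reads on histone genes the part of H1 was 19.3% ± 0.331 (SD, n = 3) with MAPKi and 15.6% ± 0.417 with DMSO, and that of H3 was 16.8% ± 0.294 and 20.7% ± 0.356. The groups did not overlap in either share.

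H1-2, a linker histone of somatic cells, had the most reads of the H1 genes. It had 8437, 9531 and 9370 normalized counts with MAPKi and 24559, 25530 and 28150 with DMSO. The groups did not overlap, although the fall was smaller than in all but 1 of the other downregulated genes (log2 fold change -1.52, standard error 0.07, adjusted p = 5.7e-08). H1-4 fell from 16887 ± 842 to 4340 ± 303 (SD, n = 3), H1-3 from 11937 ± 332 to 2519 ± 215 and H1-5, with fewer reads, from 717 ± 115 to 102 ± 20.3, with log2 fold changes of -1.96, -2.25 and -2.82. H1-2 therefore took 56.7% ± 0.629 (SD, n = 3) of the reads on H1 genes with MAPKi and 46.9% ± 1.20 with DMSO.

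H2AC20, which encodes an H2A at 1q21, fell least of all genes called. Its normalized counts were 3403, 3661 and 3331 with MAPKi and 8437, 8780 and 8942 with DMSO, so the groups lay apart in spite of the small change (log2 fold change -1.33, standard error 0.05, adjusted p = 2.0e-08). Its share of the reads on H2A genes was 19.7% ± 0.280 (SD, n = 3) with MAPKi and 12.5% ± 0.205 with DMSO. H2AC11, a gene without a match to the stem-loop, had 2420, 2391 and 2140 normalized counts with MAPKi and 9307, 9123 and 9389 with DMSO. The groups did not overlap (log2 fold change -2.0, standard error 0.05, adjusted p = 3.8e-09), and the value lay within the range of the other H2A genes. H2AC15, the other gene without a match, had a log2 fold change of -2.16. Those of H2AC8 and H2AC17 were -2.23 and -2.02.

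H2BC18 had the most reads of the H2B genes. The MAPKi libraries held 2612, 2985 and 2801 normalized counts of it and the DMSO libraries 12408, 13364 and 13478 (log2 fold change -2.23, standard error 0.06, adjusted p = 3.8e-09). All MAPKi libraries lay far below the DMSO libraries. H2BC12 fell from 9947 ± 490.0 to 2562 ± 134 (SD, n = 3) and H2BC4 from 8579 ± 179 to 2019 ± 107. H2BC21, whose annotated transcript of 2224 bases is longer than that of most H2B genes, was the H2B gene that fell least, from 11079 ± 797 to 3683 ± 106 (log2 fold change -1.59). The H2B gene with the largest fall was H2BC11 (log2 fold change -2.70), which is a neighbour of H2AC11 on the opposite strand.

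Among the genes of H3, the histone whose tail carries many of the known chromatin marks, H3C2 had the most reads. It had 2987, 3306 and 3274 normalized counts with MAPKi and 15445, 16206 and 15784 with DMSO, far apart from each other (log2 fold change -2.31, standard error 0.05, adjusted p = 1.8e-09). H3C3, H3C10 and H3C4 had log2 fold changes of -2.40, -2.50 and -2.41.

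Of the H4 genes, H4C3 had 2528, 2775 and 2637 normalized counts with MAPKi and 9744, 10606 and 10617 with DMSO (log2 fold change -1.96, standard error 0.06, adjusted p = 4.2e-09). H4C9 had 839, 926 and 898 with MAPKi and 6120, 6469 and 6777 with DMSO (log2 fold change -2.86, standard error 0.06, adjusted p = 1.1e-09). Neither gene showed overlap between the groups, and the fall was larger for H4C9. These genes encode the same protein, yet H4C9 made up 6.23% ± 0.120 (SD, n = 3) of the reads on H4 genes with MAPKi and 10.3% ± 0.246 with DMSO. For H4C5, the H4 gene called with the smallest fall (log2 fold change -1.59), the shares were 15% ± 0.0477 and 10.3% ± 0.192. H4C8, H4C4 and H4C6 had log2 fold changes of -2.04, -2.70 and -2.31.

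**Figure D3:**
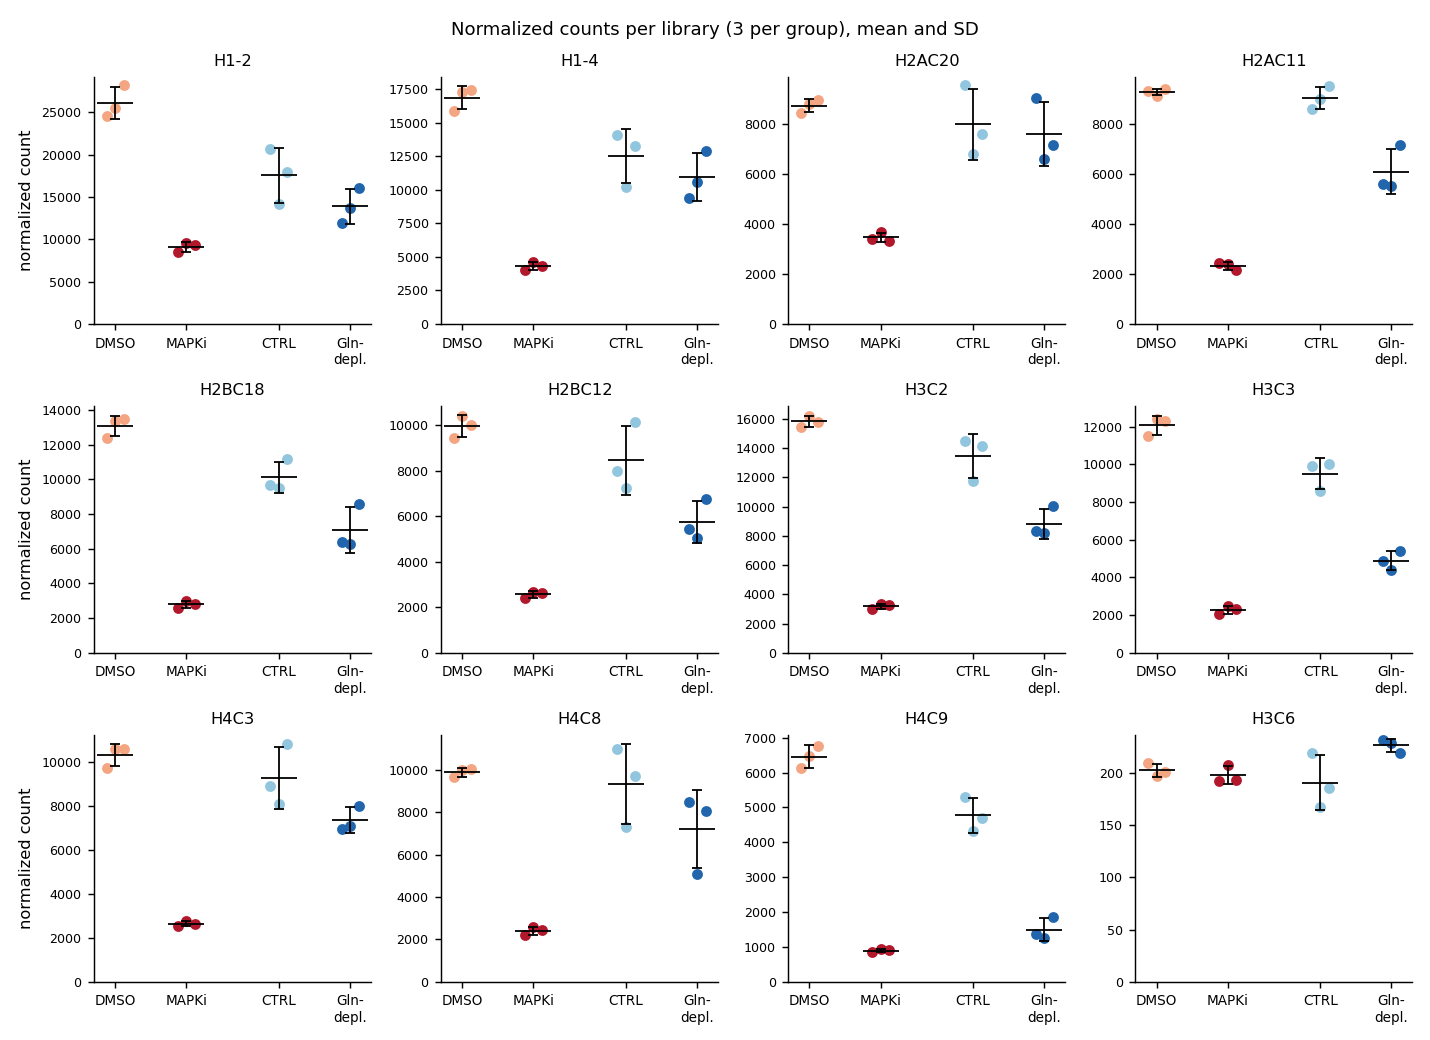
Normalized counts of 12 histone genes in every library (points, 3 per group), with the mean (horizontal line) and 1 SD (bars). In each panel but that of H3C6 the 3 MAPKi libraries lie below the 3 DMSO libraries, and those of H4C9 lie between 839 and 926 against 6120 to 6777. Each experiment was normalized on its own, so levels are compared within an experiment.

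The 3 genes that did not pass were H3C6, H3C14 and H4C15. H3C6 had 193, 208 and 194 normalized counts with MAPKi and 209.7, 197 and 201 with DMSO, and its groups overlapped (log2 fold change -0.03, standard error 0.09, adjusted p = 0.75). H3C6 has an annotated transcript of 2679 bases with 2 exons, longer than those of the other H3 genes. H3C14, H4C15 and several of the genes that fell most belong to near-identical copies, for which reads cannot be assigned to a single gene with certainty. More than 50% of the 150-base windows were repeated elsewhere in H2AC13, H2AC14, H2AC18, H2AC19, H3C14, H3C15, H4C11, H4C12, H4C14 and H4C15. H3C14 had 46.1, 7.79 and 1.77 normalized counts with MAPKi and 59.2, 97.1 and 33.9 with DMSO (log2 fold change -1.77, standard error 0.80, adjusted p = 0.069), and H4C15 had 75.2, 73.5 and 13.3 against 47.3, 94.1 and 63.9 (log2 fold change -0.36, standard error 0.53, adjusted p = 0.55). The groups overlapped in both. Reads of H2AC17 and H3C12, and those of H2BC4, H2BC18, H2AC21 and H3C4, may in part be shared with genes annotated at overlapping positions.

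H4C14, H2AC18 and H3C15 showed the largest falls. H4C14 had 49.1, 13.4 and 15.9 normalized counts with MAPKi and 236, 529 and 479 with DMSO (log2 fold change -3.98, standard error 0.46, adjusted p = 3.8e-05). H2AC18 had 76.2, 110.2 and 27.4 with MAPKi and 399, 1719 and 393 with DMSO (log2 fold change -3.59, standard error 0.69, adjusted p = 0.0011), and DMSO replicate 2 stood apart. H3C15 fell from 101 ± 48.8 to 12 ± 4.62 (SD, n = 3). All 3 lie at 1q21 in repeated sequence, with standard errors of 0.46, 0.69 and 0.44 against at most 0.16 in the genes with no more than 50% repeated windows. When the 10 genes above that limit were left out, 45 of 46 genes were downregulated, and apart from H3C6 their log2 fold changes lay between -2.86 and -1.33, that is, from 7.27-fold to 2.52-fold lower.

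Genes with and without each promoter motif overlapped in the size of their fall. Among the genes with a promoter sequence and no more than 50% repeated windows, the median log2 fold change was -2.10 in the 19 with the octamer and -2.28 in the 22 without. It was -2.42 in the 9 genes with TTTCGCGC and -2.16 in the 32 without. For CCAAT, the medians were -2.23 in 37 genes with it and -1.99 in the 4 without, and for TATAAA they were -2.18 in 27 genes and -2.19 in 14. These are descriptions of few genes, some of which share promoter sequence. Across the 46 genes with no more than 50% repeated windows, the level per length with DMSO and the log2 fold change, which come from the same libraries, had a Spearman's rho of 0.01 and a Pearson's r of -0.38. The level per length depends on the annotated exons.

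With Gln depletion fewer reads fell on the histone genes too, and the change was smaller than with MAPKi. Their reads made up 0.502%, 0.450% and 0.593% of all reads in Gln-depleted libraries and 0.900%, 0.762% and 0.930% in CTRL libraries, so that the groups did not overlap and the means differed 1.68-fold. Of the 56 genes tested, 53 had a negative log2 fold change, with a median of -0.62 (1.54-fold lower) and that of all genes at 0.00. Only 2 of them, H4C9 and H3C13, were downregulated by more than 1.5-fold at an adjusted p of at most 0.05 (edgeR's quasi-likelihood test), against 2.10% of all 12519 genes tested. Without the fold threshold 18 genes were lower, against 8.43% of all genes. No histone gene was upregulated (3.50% of all genes) or higher without the threshold (9.48%), and 0 were higher at an unadjusted p of at most 0.05 or with DESeq2. In 36 of the 56 genes every Gln-depleted library was below every CTRL library, as in 19.8% of all genes. In H3C6 every Gln-depleted library was above every CTRL library.

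These numbers depended on the spread between replicates, which went with the replicate number and the experimental batch. With the replicate number as a block, 16 histone genes were downregulated (7.84% of all genes) and 46 were lower without the fold threshold (23.8% of all genes), while the median log2 fold change stayed at -0.62. The 16 included the 2 called without the block, and the 46 included all 18. Within the pair of replicate 1, the only libraries of the first experimental batch, 55 of 56 genes were lower in the Gln-depleted library, with a median log2 ratio of -0.80. In the second batch, 52 genes were lower in the pair of replicate 2 (median -0.62) and 51 in that of replicate 3 (median -0.51), and a test of these 4 libraries alone called 5 genes. When single libraries were left out, 0 genes were downregulated without Gln-depleted replicate 2, 1 without CTRL replicate 2 or CTRL replicate 3, and 2 or 3 without each of the others. With all 12 libraries in 1 fit, in which the less variable first experiment shares in the spread, 14 genes were downregulated. The share of all genes called is not given for this fit, the test of the second batch or the left-out libraries. These counts are therefore not set against all genes.

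By class, the median log2 fold change was -0.70 for H1, -0.57 for H2A, -0.77 for H2B, -0.74 for H3 and -0.39 for H4. With the block, all 15 H2B genes tested, 11 of 12 H3 genes, 10 of 13 H2A genes, 8 of 12 H4 genes and 2 of 4 H1 genes were lower without the fold threshold. Those that did not pass even then were H1-2, H1-4, H2AC6, H2AC19, H2AC20, H3C6, H4C1, H4C5, H4C6 and H4C15.

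H4C9 showed the largest fall among the genes with an adjusted p of at most 0.05. It had 1360, 1251 and 1860 normalized counts in Gln-depleted libraries and 5294, 4321 and 4698 in CTRL libraries (log2 fold change -1.68, standard error 0.22, adjusted p = 0.0031), and every treated library was far below every control library. Its share of the reads on H4 genes was 3.85% ± 0.379 (SD, n = 3) and 8.92% ± 0.807. H3C13, an H3 gene at 1q21, had 3349, 3069 and 3657 normalized counts in Gln-depleted and 8267, 7151 and 9012 in CTRL libraries (log2 fold change -1.28, standard error 0.19, adjusted p = 0.0045), again without overlap.

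H2BC14 and H2BC11, which encode H2B proteins, followed H4C9 in the size of the fall among the genes with an adjusted p of at most 0.05. H2BC14 had 915, 1077 and 1847 normalized counts in Gln-depleted and 2419, 2827 and 4970 in CTRL libraries, with the highest value of both groups in replicate 3 (log2 fold change -1.41, standard error 0.36, adjusted p = 0.031). With the block its standard error was 0.11 (adjusted p = 1.6e-04), and it was among the 16 genes called. H2BC11 had 2968, 1741 and 2792 normalized counts in Gln-depleted and 6807, 5364 and 6323 in CTRL libraries (log2 fold change -1.30, standard error 0.24, adjusted p = 0.011). The groups did not overlap in either gene, although the highest Gln-depleted value of H2BC14 was 1847 and its lowest CTRL value 2419.

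In each class, the single gene with the highest mean normalized count over both experiments had a log2 fold change nearer to 0 than H2BC14 and H2BC11. Other genes with many reads differed, with -1.11 in H1-3 and -0.96 in H3C3 but -0.20 in H1-4 and -0.28 in H4C6. Across all 56 genes tested, the level per length with CTRL and the log2 fold change had a Spearman's rho of 0.09 and a Pearson's r of 0.05. High expression therefore did not go with a smaller fall across the genes. H1-2 had 11926, 13702 and 16018 normalized counts in Gln-depleted libraries and 20641, 14159 and 17877 in CTRL libraries, which overlapped (log2 fold change -0.34, standard error 0.21, adjusted p = 0.29, and 0.12 with the block). H2AC20 had 9050, 6615 and 7154 against 9557, 6800 and 7606, which also overlapped (log2 fold change -0.07, standard error 0.21, adjusted p = 0.84). H2BC18 had 6394, 6254 and 8601 against 9673, 9508 and 11160. Its groups did not overlap, and its log2 fold change of -0.51 (standard error 0.20) had an adjusted p of 0.11 without and 0.0068 with the block.

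H3C2 had 8308, 8169 and 10011 normalized counts in Gln-depleted and 14460, 11724 and 14136 in CTRL libraries (log2 fold change -0.61, standard error 0.19, adjusted p = 0.056, and 0.0043 with the block). H4C3 had 6975, 7080 and 8021 against 8894, 8088 and 10819 (log2 fold change -0.33, standard error 0.19, adjusted p = 0.24, and 0.043 with the block). The groups overlapped in neither gene, but by a narrow margin in H4C3. H3C6 had 232, 229 and 219.6 against 219.5, 168 and 185, with all Gln-depleted libraries above the CTRL libraries by a margin that did not pass the test (log2 fold change 0.25, standard error 0.24, adjusted p = 0.49). The log2 fold changes of H2AC6 and H4C5 were 0.15 and 0.16, with adjusted p of 0.64 and 0.77. H3C14, with the lowest log2 fold change of all (-1.93, standard error 0.80, adjusted p = 0.13), had 51.0, 21.5 and 40.0 normalized counts in Gln-depleted and 333, 47.6 and 48.0 in CTRL libraries.

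The response to MAPKi was tested against that to Gln depletion as a difference of log2 fold changes over the 12 libraries. It was more negative with MAPKi in 43 of 56 histone genes, which were downregulated with MAPKi in each case, by more than 1.5-fold at an adjusted p of at most 0.05, against 11.2% of all 12633 genes tested (22.3% differed in either direction). In 0 genes was it more negative with Gln depletion (0 at an unadjusted p of at most 0.05 and 0 with DESeq2). Without the fold threshold 49 genes were more negative with MAPKi, against 20.9% of all genes. The median difference over the 56 genes was -1.5, and that of all genes was -0.03. Each experiment was sequenced in a batch of its own, so that the difference between experiments and that between batches cannot be told apart. The test also took the spread of a gene as equal in all 12 libraries, although replicates of the second experiment differed more. Its p-values and counts may therefore be too confident.

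H4C6 differed most among the genes with the most reads in their class, at -1.98 (adjusted p = 3.3e-06), with log2 fold changes of -2.31 with MAPKi and -0.28 with Gln depletion. Its standard error was 0.158 for the difference, below the 0.171 for Gln depletion alone, so this p is likely too small. For H1-4 the difference was -1.72 and for H4C4 -1.76. H4C9, which fell in both experiments, differed by -1.14 (adjusted p = 0.0014). H2BC14 and H2BC21 did not pass the threshold of 1.5-fold, with differences of -1.12 and -0.91. Genes that fell further with MAPKi also tended to have lower values with Gln depletion. Across the 46 genes with no more than 50% repeated windows, the log2 fold changes of both experiments had a Pearson's r of 0.71 and a Spearman's rho of 0.72, a description of genes that share libraries within each experiment and, in part, sequence. No control library was shared between the experiments.

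**Figure D4:**
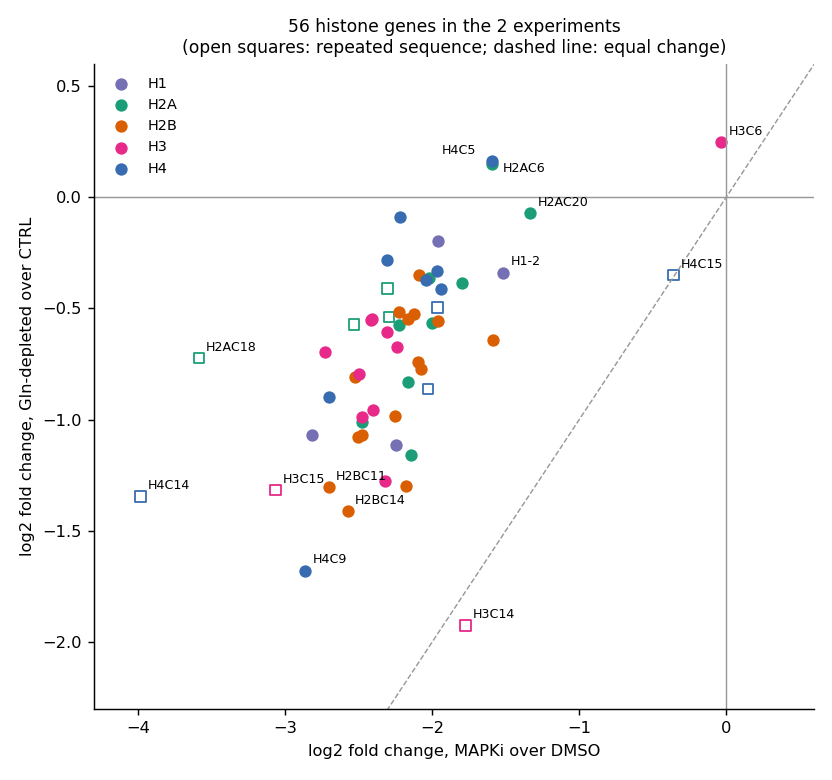
Log2 fold change with MAPKi over DMSO (horizontal) and in Gln-depleted over CTRL libraries (vertical) for 56 histone genes, coloured by class, with open squares for genes in repeated sequence and a dashed line of equal change. All but H3C14 lie above the dashed line, which means a more negative value with MAPKi, with H4C15 close to the line (-0.36 and -0.35), and H4C9 lies lowest among the filled points at -2.86 and -1.68.

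Genes that carry out the life cycle of histone mRNAs were examined as lists. Their counts stand against 18.6% of all genes downregulated and 17.0% upregulated with MAPKi, and 2.10% and 3.50% with Gln depletion (7.84% downregulated with the block). Among genes that control histone transcription, 6 of 9 tested were downregulated with MAPKi and 0 upregulated (median log2 fold change -0.95). With DESeq2, 5 were downregulated and 0 upregulated. E2F1, a transcription factor of the G1 to S transition, fell from 1453 ± 79.3 to 199.8 ± 20.7 (SD, n = 3), with a log2 fold change of -2.86. CDC25A, a phosphatase that activates CDK2, fell from 1898 ± 234 to 260.1 ± 16.5 (-2.86) and CCNA2, cyclin A2, from 4794 ± 87.7 to 1436 ± 55.7 (-1.74). NPAT, the coactivator that gathers at the histone gene clusters, fell from 898 ± 54.9 to 555 ± 23.5 (log2 fold change -0.70, adjusted p = 7.9e-06), which is near the threshold of 1.5-fold.

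With Gln depletion 1 of 10 genes of transcription was downregulated and 0 upregulated, against 2 and 0 with the block. It was CDK2, the kinase that phosphorylates NPAT, which fell from 10259 ± 419 to 3312 ± 246 (SD, n = 3), with a log2 fold change of -1.63 (adjusted p = 0.0015). With MAPKi the log2 fold change of CDK2 was -0.95, and the difference between the experiments was 0.72 (adjusted p = 0.0017). CCNA2 had a log2 fold change of -0.91 (adjusted p = 0.012), CDC25A of -0.66 (adjusted p = 0.095) and NPAT of 0.08 (adjusted p = 0.88).

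In the list of 3′ end processing, 11 of 17 genes were downregulated with MAPKi and 0 upregulated (median log2 fold change -0.94). SLBP, which binds the stem-loop shown above and itself accumulates in S phase, fell from 2912 ± 158 to 1146 ± 37.5 (SD, n = 3), with a log2 fold change of -1.34 (adjusted p = 2.2e-08), and the difference between the experiments was -0.69 (adjusted p = 0.024). The smallest p were those of SNRPF (log2 fold change -1.68), SNRPB (-1.58) and SNRPG (-1.39), Sm proteins that are also part of the spliceosome. LSM11 and ZNF473, components particular to U7-dependent processing, had log2 fold changes of -0.96 and -1.10. With Gln depletion 0 genes of this list were called (edgeR's quasi-likelihood test, 2 lower and 1 higher at an unadjusted p of at most 0.05, and 0 by the fold threshold with DESeq2), and 0 passed the fold threshold with the block. Without that threshold, 5 of 17 were lower and 2 higher with the block, against 2982 and 3149 of all 12519 genes. With DESeq2, 1 was higher without it, against 1748 of all genes. SLBP had 2409 ± 611 normalized counts (SD, n = 3) in Gln-depleted and 3674 ± 185 in CTRL libraries (log2 fold change -0.61, standard error 0.22, adjusted p = 0.087). The other genes with the smallest p were NCBP2 and SRRT, which act with the mRNA cap, with log2 fold changes of 0.74 (adjusted p = 0.074) and -0.69 (adjusted p = 0.11).

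Of the genes of histone mRNA decay, 3 of 12 were downregulated with MAPKi, which is near the 18.6% of all genes, and 0 upregulated (median log2 fold change -0.09). They were the decapping enzyme DCP2 (-1.02), the kinase PRKDC (-0.76) and ERI1 (-1.47), the exonuclease that trims the histone stem-loop. With Gln depletion 0 of 12 were called in either direction (edgeR's quasi-likelihood test, 0 lower and 2 higher at an unadjusted p of at most 0.05, and 0 with DESeq2), and 1 was upregulated with the block. Without the fold threshold, 1 of 12 was lower and 4 higher with the block, against 2982 and 3149 of all 12519 genes. The smallest p were those of LSM1 (log2 fold change 0.49, adjusted p = 0.12), SMG1 (0.72, adjusted p = 0.13) and DCP2 (0.91, adjusted p = 0.17).

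Histone chaperones and acetyltransferases, which receive the newly made histones, were downregulated with MAPKi in 13 of 24 cases and upregulated in 1 (median log2 fold change -0.79), and in 11 and 1 with DESeq2. MCM2, the helicase subunit that also binds H3 and H4, TONSL, a reader of new H4, and CHAF1A of chromatin assembly factor 1 had log2 fold changes of -2.40, -2.46 and -1.72. HAT1, named after its values were seen, rested on a single library, since the DMSO libraries had 8.60, 462 and 11.6 normalized counts and the MAPKi libraries 5.01, 8.90 and 1.77. With Gln depletion TONSL alone was downregulated (log2 fold change -1.94, adjusted p = 0.0093) among 25 genes and 0 were upregulated, against 4 and 2 with the block. UBN1 and ASF1A, both of which take part in the deposition of histones, were higher without the fold threshold (log2 fold changes 1.13 and 1.61, adjusted p = 0.013 and 0.017).

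Replication-independent histone variants, whose mRNAs are expressed outside S phase and mostly carry a poly(A) tail, differed among themselves. With MAPKi 5 of 11 were downregulated and 0 upregulated (median log2 fold change -0.22). H2AX, whose transcript can also end in the stem-loop, fell from 7781 ± 267 to 2476 ± 94.4 (SD, n = 3), with a log2 fold change of -1.65 (adjusted p = 4.9e-09). H2AZ1 fell from 26949 ± 379 to 11572 ± 254 (-1.22) and CENPA, the H3 of centromeres, from 1998 ± 162 to 617 ± 1.56 (-1.69). H3-3B, which encodes H3.3, had 21326 ± 865 normalized counts with MAPKi and 21905 ± 339 with DMSO (log2 fold change -0.04, adjusted p = 0.44).

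With Gln depletion 0 of 11 variants were called by the fold threshold (edgeR's quasi-likelihood test, 2 lower and 2 higher at an unadjusted p of at most 0.05, 0 with DESeq2), and 2 were downregulated and 1 upregulated with the block. H3-3B was higher in Gln-depleted libraries (46458 ± 3405, SD, n = 3) than in CTRL libraries (23046 ± 2279) without the fold threshold (log2 fold change 1.01, standard error 0.17, adjusted p = 0.0082). Its response differed between the experiments (difference of log2 fold changes -1.01, adjusted p = 2.7e-04). H2AZ1 and H2AX were lower without the fold threshold, with log2 fold changes of -0.96 (adjusted p = 0.012) and -1.07 (adjusted p = 0.020).

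**Figure D5:**
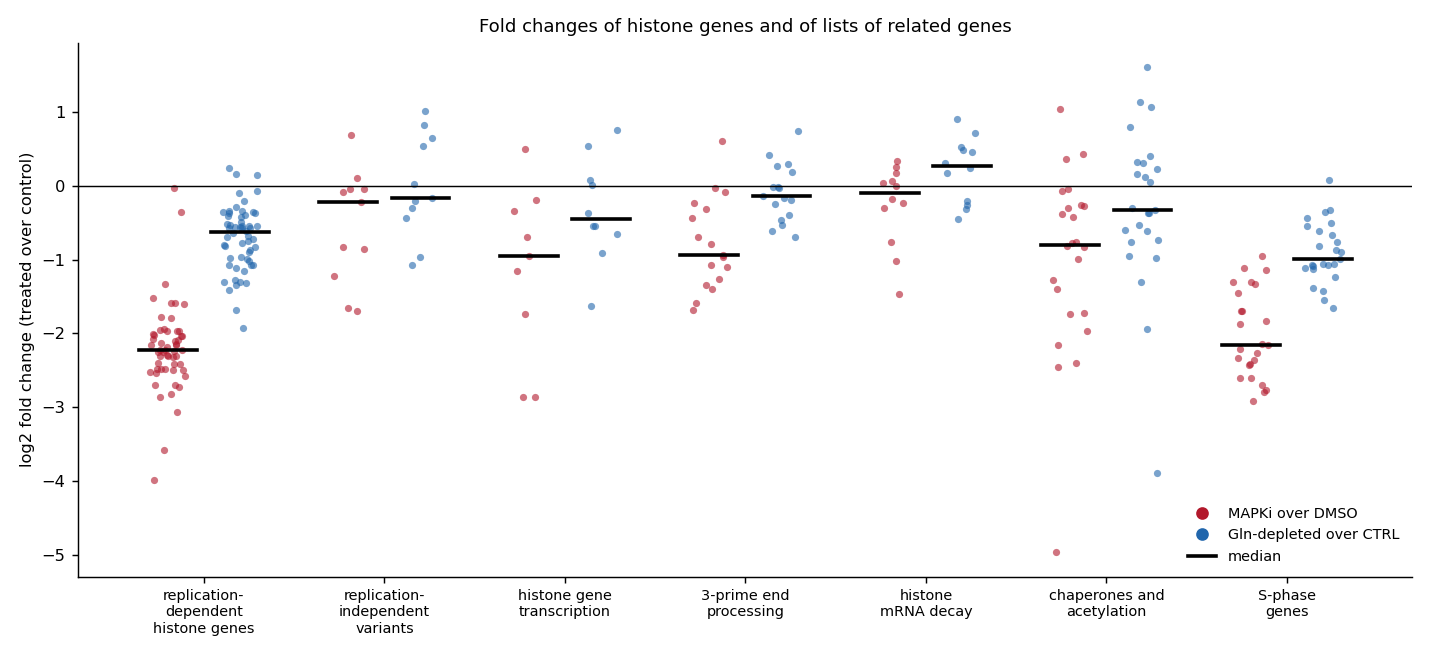
Log2 fold changes (points) and medians (black lines) of the 56 histone genes and of the tested genes of 6 lists, with MAPKi over DMSO (red) and in Gln-depleted over CTRL libraries (blue). The medians with MAPKi were -2.23 for the histone genes, -2.16 for S-phase genes and -0.22 for replication-independent variants, and the lowest red point is HAT1 (-4.97), which rests on 1 library.

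With MAPKi, the list of related genes whose median was nearest to that of the histone genes was that of S-phase genes, which act in DNA replication and nucleotide synthesis. All 25 were downregulated (median log2 fold change -2.16, from -2.92 to -0.95). CDT1, which licenses origins, RRM2, a subunit of ribonucleotide reductase, and TYMS, thymidylate synthase, had log2 fold changes of -2.60, -2.92 and -2.21. With Gln depletion 3 of 25 were downregulated and 0 upregulated, 13 were lower without the fold threshold, and the median was -0.99. With the block, 16 were downregulated and 24 lower. GINS4 and GINS2, subunits of the replicative helicase, and TYMS had log2 fold changes of -1.66, -1.43 and -1.39 (adjusted p = 0.0029, 0.0071 and 0.0065), whereas RRM2 had -0.36 (adjusted p = 0.18).

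The table row H4-16, an H4 gene outside the clusters, had 515, 529 and 727 reads with MAPKi and 1096, 1230 and 1179 with DMSO. In a fit of all genes of the table it was lower with MAPKi (log2 fold change -1.0, standard error 0.08, adjusted p = 5.6e-06), a smaller fall than that of all 53 downregulated genes. With Gln depletion it had 422, 398 and 432 reads against 867, 812 and 1152 (log2 fold change -0.98, standard error 0.21, adjusted p = 0.022, and 0.0019 with the block). The row H2BU1 had at most 26 reads in any library. H2AW, a further histone row, had 6 to 56 reads per library. Its log2 fold change was -0.41 with MAPKi (adjusted p = 0.44) and -0.41 with Gln depletion (adjusted p = 0.63, edgeR's quasi-likelihood test).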

How the data were processed

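RNA-seq counts of 12 libraries of A375 cells, 3 per group, were analysed. The authors deposited raw counts of reads per gene, on exons, after trimming with fastp 0.20.1, alignment to GRCh38.p13 with HISAT2 2.2.1 and counting with HTSeq 0.13.5 with the NCBI annotation. How reads that match several genes were counted is not given in the sources used here, so near-identical histone genes are uncertain. Groups were taken from the labels. Counts of 19388 rows (protein-coding genes and the 66 histone genes) were fitted with edgeR 4.0.16 (R 4.3.3), with TMM normalization and quasi-likelihood tests, in genes whose normalized count averaged 10 or more. Genes were called up- or downregulated by a test against a 1.5-fold change (log2 0.585) at an adjusted p (Benjamini-Hochberg) of no more than 0.05. The adjusted p printed for single genes tests against no change. The difference between the experiments was an interaction in a fit of all 12 libraries. Same-numbered libraries deviated together in the Gln depletion experiment (correlations of 0.584, 0.442 and 0.386) but not with MAPKi (0.069, 0.058 and 0.056), so blocked values are given for the former. On simulated counts, 198 of 200 changed genes were recovered with MAPKi and 125 of 200 with Gln depletion. In the same counts 10 and 7 unchanged genes were called. These rates hold for the changes simulated. DESeq2 1.42.0, other scalings, filters and thresholds, and leaving out libraries were tried as alternatives.

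The histone genes, the lists of related genes and the tests were chosen with earlier results of these data known. Named were the 4 genes of each class with the highest mean normalized count, the 3 largest falls in each experiment at an adjusted p of at most 0.05, H1-6, and of each list the 3 genes with the smallest p with SLBP, NPAT, H2AX and H3-3B. A further gene of the naming rule is not reported here. Other genes named were chosen after their values were seen. Positions came from GENCODE 44 and promoters from RefSeq (GRCh38.p14). RPKM used the summed exon length of GENCODE.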

Additional observations from a re-analysis of the deposited data

Results flagged for a closer look

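The response of the histone genes differed between the experiments. The difference of log2 fold changes, MAPKi minus Gln depletion, passed the test in 43 genes, all with the more negative value with MAPKi. Over the 43 genes it ran from -2.79 to -1.0 (H3C13). Among the genes chosen by the naming rule, it was -2.79 for H2AC18 and -2.60 for H4C14, both in repeated sequence. It was -1.98 for H4C6, -1.82 for H3C4, -1.76 for H4C4, -1.72 for H1-4, -1.70 for H1-5 and -1.69 for H2BC4. It was -1.67 for H2BC18, -1.66 for H3C10, -1.66 for H3C2, -1.62 for H4C8, -1.61 for H2AC17, -1.61 for H2AC8 and -1.59 for H4C3. It was -1.40 for H3C3, -1.39 for H2AC11, -1.36 for H2BC11, -1.36 for H2BC12, -1.21 for H2AC20, -1.14 for H4C9 and -1.13 for H1-2. The experiments were sequenced in separate batches, which cannot be told apart from the treatments. The fit took the spread of a gene as equal in both, so the number of genes passing may be too high.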

How the results depend on the processing

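The count of histone genes downregulated with MAPKi was 53 with DESeq2 and without a fold threshold, and 53 to 54 when single libraries were left out. With Gln depletion the count of 2 downregulated genes became 18 without the fold threshold, 0 with a log2 threshold of 1, 14 with all 12 libraries in a single fit, 16 with the replicate block and 5 in experimental batch 2 alone, and ranged from 0 to 3 when single libraries were left out. Without the fold threshold, DESeq2 called 30 genes lower with Gln depletion against 18 with edgeR. Of all 12519 genes tested, it called 1602 lower against 1055 with edgeR. The difference between the experiments was called in 23 genes, not 43, with a log2 threshold of 1, and in 40 to 45 when single libraries were left out. It was called in 38 genes with DESeq2, where 1065 of all 12633 genes were called more negative with MAPKi. It was called in 39 when genes with repeated windows were left out. With the replicate block the numbers were 54 with MAPKi and 51 for the difference. The share of all genes is given here only for the main fits (with and without the fold threshold), DESeq2 and the block with Gln depletion. Counts under other settings are therefore not set against all genes. No result reversed its direction. Of the values of single named genes under the alternatives, 415 of 415 with MAPKi, 393 of 442 with Gln depletion and 525 of 546 for the difference kept their direction and their side of the threshold. The 10 untested genes had at most 14 reads in any library, too few for a test.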
